A study of Mus musculus with 2 samples.

Results

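Mir132 and Mir212 are a pair of microRNA (miRNA) genes that lie side by side on mouse chromosome 11 and are processed from a common primary transcript. They were taken by symbol from the tables of both libraries and are 2 of the 1973 miRNA genes listed there. The tables come from small RNA, under 30 bases, of the midbrain of healthy B6NCrl mouse embryos at 15.5 days of development, an age of ongoing neuronal differentiation. The single group, midbrain, holds 2 biological replicates, each a library from pooled male and female embryos, 78 in replicate 1 and 62 in replicate 2. No treatment, genotype or second tissue was measured, so the questions are how much of each gene was counted, in what proportion, and how alike the pools were. The tissue is a mixture of cell types, and fewer cells of a type cannot be told apart here from less RNA per cell.

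A miRNA gene is transcribed as a long RNA from which a hairpin is cut, and the hairpin yields mature strands from its 5′ arm (5p) and its 3′ arm (3p). The mature strand guides a silencing complex to messenger RNAs, mostly by pairing through its seed, bases 2 to 8. In neurons, transcription of the Mir212 and Mir132 locus is known to be driven by the factor CREB after synaptic activity or the growth factor BDNF, and miR-132 is known for its effects on dendrites and spines. These are background facts, and neuronal activity was not measured here.

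The mature arms are shown because they define the pair. The sequences are those of RefSeq on GRCm38.p6, on the plus strand, with the seed in capitals.
miR-132-3p: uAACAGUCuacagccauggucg
miR-212-3p: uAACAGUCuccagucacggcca
miR-132-5p: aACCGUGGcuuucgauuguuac
miR-212-5p: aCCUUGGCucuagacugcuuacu
The 3p arms had the same seed, AACAGUC, and the same first 9 bases. Counted from 1 at the 5′ end, with the base of miR-132 first, they differed at A10C, C14U, U17C, U20C and G22A, so 17 of 22 bases were identical. The 5p arms had different seeds, ACCGUGG in miR-132-5p and CCUUGGC in miR-212-5p. Set against each other from base 1 without gaps, they matched at 9 of the first 22 bases. Identity was not counted with a shifted start, which can match more bases of these arms. Among 1738 mature arms in the RefSeq table, no other arm carried the seed of the 3p arms, and neither 5p seed recurred.

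The hairpins are shown with both mature arms in capitals, because reads anywhere in a hairpin enter the count of its gene.
Mir132: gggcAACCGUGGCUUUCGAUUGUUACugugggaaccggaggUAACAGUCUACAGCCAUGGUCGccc
Mir212: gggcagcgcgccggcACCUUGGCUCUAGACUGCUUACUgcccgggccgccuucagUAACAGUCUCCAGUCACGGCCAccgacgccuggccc
The hairpin of Mir132 has 66 bases and that of Mir212 has 91. Their predicted folding energies (RNAfold) were -37.2 kcal/mol for Mir132 and -41.5 kcal/mol for Mir212, or -0.564 and -0.456 kcal/mol per base, against a median of -0.406 over 1005 hairpins of the table. The longest run that a mature arm of the pair had in common with any of the other hairpins was 9 bases for miR-132-5p, 10 for miR-132-3p, 11 for miR-212-5p and 10 for miR-212-3p, on either strand. No arm of the pair thus had a run of 20 bases in another listed hairpin, and the longest run common to the hairpins of Mir132 and Mir212 was 10 bases. The counts join the arms of a hairpin, so the part of each count that carries the common seed was not measured.

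On the mm10 assembly, Mir212 (ENSMUSG00000065590) lies at chr11:75173388-75173478 and Mir132 (ENSMUSG00000065537) at chr11:75173682-75173747, both on the plus strand with 203 bases between them. Mir212 comes first in the direction of transcription. Both lie in the first intron of 1700016P03Rik, a noncoding host transcript of 3 exons at chr11:75172560-75177633, 828 bases (Mir212) and 1122 bases (Mir132) after its first base. No other miRNA gene of the tables lies within 50 kb of either. The protein-coding genes nearest to the host on either side are Hic1, a transcriptional repressor, and Ovca2, both on the opposite strand, and Ovca2 overlaps the 3′ part of the host but neither hairpin.

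**Figure D1:**
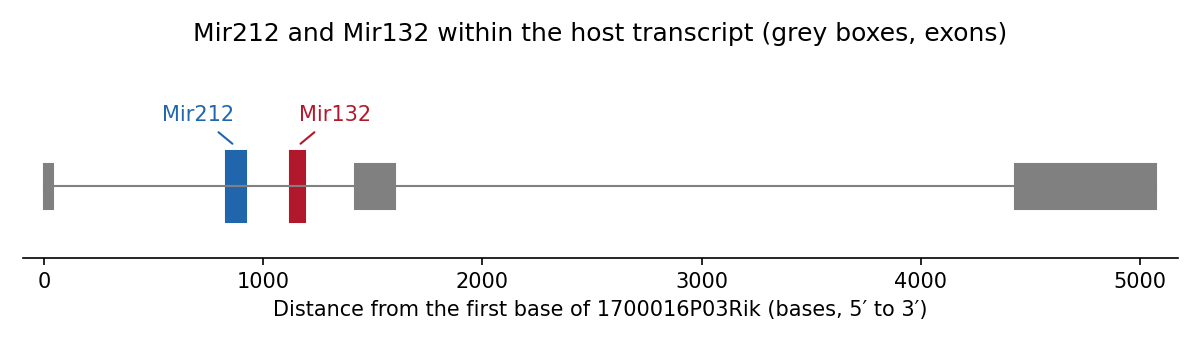
Positions of Mir212 (blue) and Mir132 (red) in the host transcript 1700016P03Rik, with distance from its first base in bases on the horizontal axis and exons as grey boxes. Both hairpins sit in the first intron, with Mir212 828 and Mir132 1122 bases after the first base.

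The libraries held 3429704 sense reads on miRNA genes in replicate 1 and 5752476 in replicate 2, so that 1 read was worth 0.292 and 0.174 CPM. The sense strand is the strand of the gene, and CPM (read counts per 1000000) is scaled to the sense reads on all miRNA genes. Reads with several mapping places, 37.7% of listed reads in replicate 1 and 35.8% in replicate 2, were given to no gene.

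Mir132 was counted 19.6 times as often as Mir212 in the embryonic midbrain, on average over the libraries. Mir132 had 2664 reads in replicate 1 and 5124 in replicate 2, or 776.7 CPM (95% exact Poisson interval 747.5 to 806.8) and 890.7 CPM (866.5 to 915.5). Mir212 had 140 and 255 reads, or 40.8 CPM (34.3 to 48.2) in replicate 1 and 44.3 CPM (39.1 to 50.1) in replicate 2. The values of the pair did not overlap in either library, and replicate 2 was the higher library for both genes. The means were 833.7 ± 80.6 CPM for Mir132 and 42.6 ± 2.48 CPM for Mir212 (SD, n = 2), or 0.0834% and 0.00426% of sense counts. Each interval is computed from the count in its own library, so it covers counting error only. Reads are not independent molecules, so even that error may be larger than the intervals show. Neither gene had a read on the opposite strand in either library. A count of 0 allows up to 3 reads, a limit of 0.875 CPM in the shallower replicate 1 and of 0.522 CPM in replicate 2.

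There were 19.03 reads of Mir132 for each read of Mir212 in replicate 1 (95% exact interval 16.1 to 22.7) and 20.1 in replicate 2 (17.7 to 22.9). This ratio needs no scaling between libraries, because both genes are counted in the same library. It averaged 19.6 ± 0.753 (SD, n = 2), or 4.29 ± 0.056 on the log2 scale. Mir212 made up 4.99% (4.22 to 5.87) of the reads of the pair in replicate 1 and 4.74% (4.19 to 5.34) in replicate 2. The ratio did not differ detectably between the libraries. Its odds ratio, replicate 1 over replicate 2, was 0.947 with an exact 95% interval of 0.763 to 1.18 (two-sided Fisher's exact test, p = 0.625). Odds ratios within that interval are compatible with the counts, and its width is set mainly by the 395 reads of Mir212 over both libraries. Ligation and amplification can favour some miRNA sequences in both libraries alike, so the ratio is one of counted reads.

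**Figure D2:**
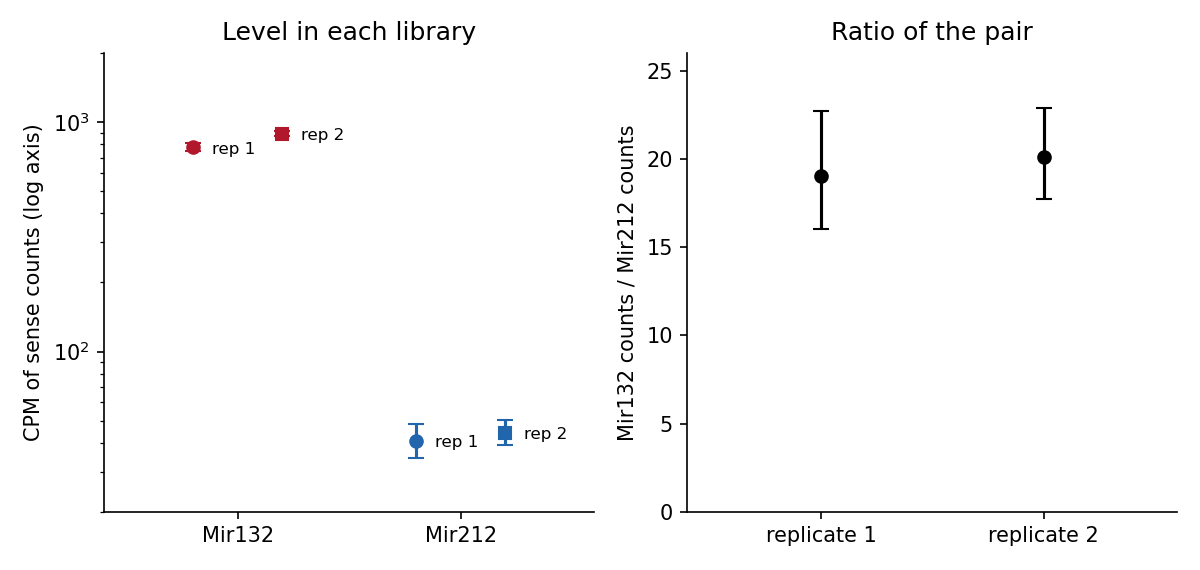
Left, CPM of Mir132 and Mir212 in each library on a log axis with 95% exact Poisson intervals. Right, counts of Mir132 divided by counts of Mir212 in each library with 95% exact intervals, which overlap at 19.03 in replicate 1 and 20.1 in replicate 2.

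By mean CPM Mir132 ranked 94 and Mir212 ranked 250 of 1973 genes, 474 of which reached a mean of 1 CPM. Reads that fit several places are given to no gene, so genes with near-identical copies may rank too low beside the pair. In single libraries Mir132 ranked 99 in replicate 1 and 96 in replicate 2, and Mir212 ranked 253 and 249. The range of Mir132 over the libraries overlapped those of 10 other genes, 1 with a higher mean and 9 with a lower one. The gene above it was Mir351, at 907.1 and 816.7 CPM in replicates 1 and 2, and the next below were Mir128-2 (745.5 and 917.2 CPM) and Mir1298 (745.5 and 893.2 CPM). Mir543, at 959.3 and 1041 CPM, was the nearest gene above Mir132 with no overlap. Mir212 overlapped 19 other genes and could not be told from its rank neighbours Mir1198, Mir224, Mir27a and Mir7689 beyond their spread.

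The genes with values most like those of Mir132, by distance in log2(CPM + 1) over the 2 libraries, were Mir1298 (distance 0.059), Mir128-2 (0.073), a copy of a neuronal miRNA, and Mir300 (0.10). Those most like Mir212 were Mir1198 (0.043), Mir3061 (0.084) and Mir7689 (0.085). With only 2 libraries, this likeness is one of level. Of these 6 genes, only Mir3061 lies on chromosome 11.

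Both genes had the lower value in replicate 1, and only Mir132 was called by the test. After TMM scaling, the fold of replicate 1 over replicate 2 was 0.892 for Mir132 (95% counting interval 0.851 to 0.935, log2 ratio -0.16) and 0.942 for Mir212 (0.761 to 1.16, log2 ratio -0.084). In the two-sided conditional exact binomial test, adjusted over all 717 genes with a count, the adjusted p was 1.48e-05 for Mir132 and 0.907 for Mir212. The interval of Mir212 contains the fold of Mir132, so Mir212 was too thinly counted to show a difference of that size. Of all genes tested, 19.8% were called in either direction, 9.76% as lower in replicate 1 and 10% as higher. Of the 203 genes whose mean reached 100 CPM, 57.1% were called. A call for a gene as deep as Mir132 was therefore common in these libraries. The log2 ratio of 62 of those 203 genes was larger in size than that of Mir132, and the median size over the 203 was 0.12. When the pools were assumed to vary by 10% (coefficient of variation), edgeR's exact test called neither gene (unadjusted p = 0.430 for Mir132 and 0.763 for Mir212, adjusted p = 1 for both). The test compares 1 library with another, and the difference has no replicate check.

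**Figure D3:**
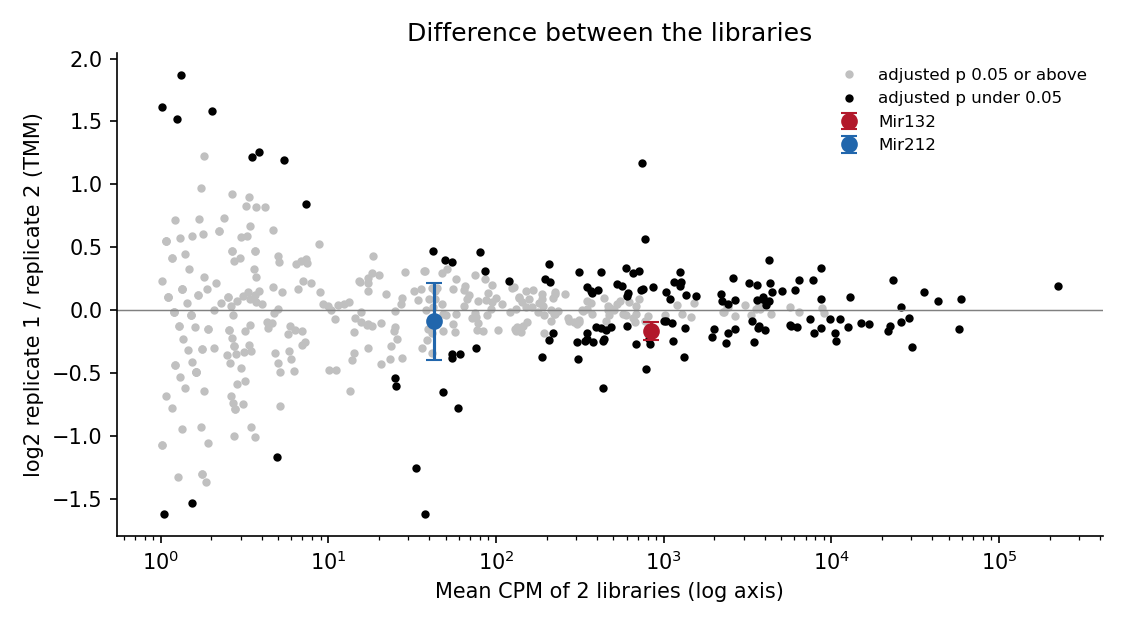
Log2 ratio of replicate 1 over replicate 2 after TMM scaling against mean CPM on a log axis, for genes whose mean reached 1 CPM, black where the adjusted p of the exact binomial test is under 0.05. Mir132 (red) and Mir212 (blue) are drawn with their 95% counting intervals, and of these intervals that of Mir212 spans 0.

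Markers of the tissue and of other cells were read from the same tables. The neuronal list had 6 of 7 genes at a mean of at least 1 CPM and summed to 16182 CPM in replicate 1 and 17494 in replicate 2, most of it Mir137 (11192 ± 554.7 CPM) and Mir153 (3360 ± 191 CPM). The Mir124a copies, of a neuronal miRNA that is a defining marker, averaged at most 3.69 CPM, and a read that fits several copies is given to none. The progenitor list, with Mir92b and Mir9-3, summed to 4533 and 4558 CPM, and the oligodendrocyte list, with Mir219a-2 and Mir219a-1, to 1811 and 1688 CPM. Copies of Mir9, Mir219a and Mir128 also lose reads that fit more than 1 copy. The sums of the different lists are therefore not counted alike. Endothelial Mir126a had 24909 and 21568 CPM, and the mural list, nearly all Mir143 with some Mir145a, 6392 and 5868 CPM. The lists of red cells (Mir451a and Mir144) and of microglia and white cells (Mir223 and Mir155) summed to 197 and 208 CPM and to 334 and 319 CPM. The muscle list (Mir208b and Mir206) had 35.6 and 71.1 CPM, liver Mir122 had 43.2 and 76.1 CPM, and the choroid plexus list (Mir204 and Mir211) 1146 and 1511 CPM. Mir145b, Mir1a-1, Mir133a-1 and Mir133a-2 had 0 counts in both libraries. Copies of Mir133a and of Mir1a also lose reads that fit more than 1 copy. Their 0 counts, and the muscle sum, therefore do not show that these miRNAs were absent.

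Genes of these lists were called in both directions. Of the 6 detected neuronal genes 3 were called lower in replicate 1 (Mir137, Mir153 and Mir128-2) and none higher, against 9.76% lower and 10% higher over all genes tested, with a median log2 ratio of -0.061 against 0.0023 over all genes of at least 1 CPM. All 3 were among the 4 neuronal genes of at least 100 CPM, a depth at which 57.1% of all genes were called in either direction. The share called lower at that depth was not counted, so the count is not read as particular to that list. Progenitor Mir9-3 (log2 ratio -0.13), muscle Mir208b, liver Mir122 and choroid plexus Mir204 were also called lower in replicate 1, as Mir132 was. Progenitor Mir92b (0.045), oligodendrocyte Mir219a-2 (0.23), endothelial Mir126a and mural Mir143 were called higher there. No red cell, microglial or white cell marker was called. The part of any of these cell types in the value of Mir132 was not tested.

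Set beside other miRNAs linked to neuronal activity or synapses, Mir132 stood in the middle of the list and Mir212 near its lower end. Of 12 listed genes 11 were matched by symbol and all 11 had a mean of at least 1 CPM; 5 lay above Mir132 and 6 below it, while 10 lay above Mir212. The list summed to 10599 CPM in replicate 1 and 10635 CPM in replicate 2. The highest were Mir381 (3554 ± 46.8 CPM, SD, n = 2) and Mir379 (2401 ± 23.99 CPM), both of the large imprinted cluster on chromosome 12 whose transcription in neurons depends on the activity-regulated factor Mef2. Mir134 of the same cluster, known in rat neurons for limiting the size of dendritic spines, had 1115 ± 71.8 CPM. Mir138-1, whose mature miRNA also acts on spines in rat neurons, had 1087 ± 31.4 CPM, and its other copy Mir138-2 had 593.1 ± 20.2 CPM. Mir188 had 1033 ± 56.3 CPM, Mir485 437.7 ± 14.4 CPM, Mir129-2 194 ± 6.73 CPM, Mir329 142.8 ± 2.57 CPM and Mir129-1 54.2 ± 10.3 CPM. Mir184, at 3.70 ± 1.78 CPM, was the one listed gene below Mir212. The gaps from Mir132 to its nearest list members, Mir188 above and Mir138-2 below, exceeded the SDs of the genes. The levels of Mir138 and Mir129 leave out reads that fit both copies.

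Between the libraries, the other activity-linked genes were called in both directions. Of the 11, 2 were called lower in replicate 1, as Mir132 was (Mir134, log2 ratio -0.098, and Mir129-1, -0.35), and 3 higher (Mir188, 0.14, Mir138-1, 0.092, and Mir379, 0.054), with a median log2 ratio of 0.054. Over all genes tested, 9.76% were called lower and 10% higher. The list holds mostly genes of more than 100 CPM, and at that depth 57.1% of all genes were called in either direction.

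**Figure D4:**
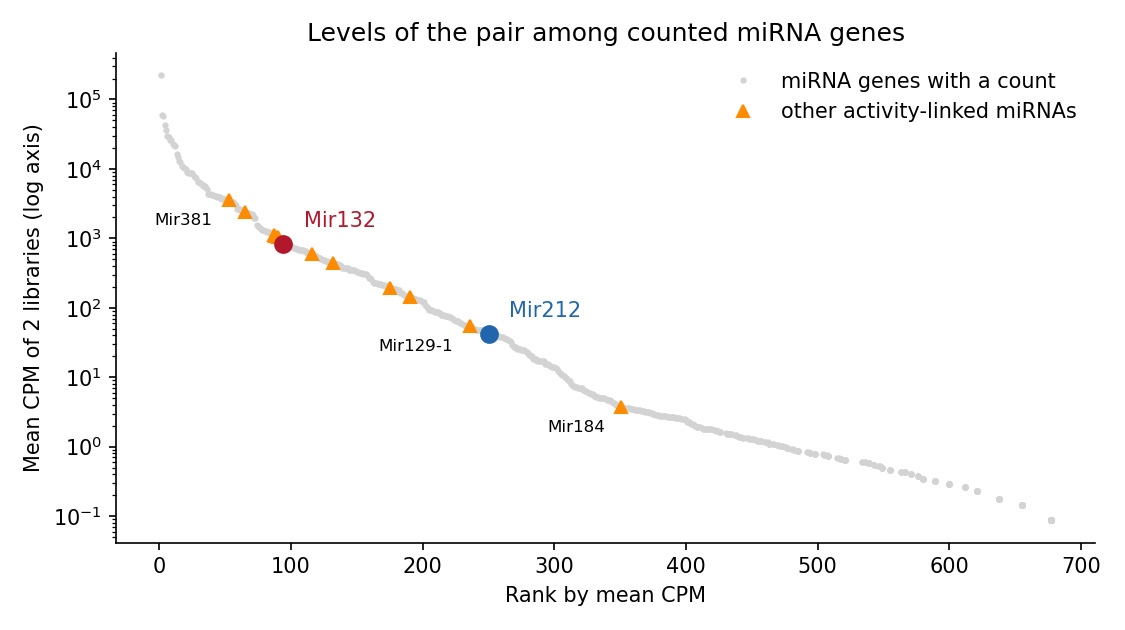
Mean CPM of the 2 libraries on a log axis against rank, for all miRNA genes with a count (grey), with the 11 other activity-linked miRNAs as orange triangles. Mir132 stands at rank 94 with 833.7 CPM and Mir212 at rank 250 with 42.6 CPM.

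Unequal counts were common among miRNA genes that lie together, and the pair was more unequal than most such neighbours. In all, 104 adjacent pairs on the same strand had a gap of at most 10 kb and both members at a mean of at least 1 CPM. The higher member exceeded the lower 19.6 times in Mir132 and Mir212, against a median of 7.39 times over all pairs, and 36 of the 104 pairs had a larger ratio. The largest belonged to Mir449a and Mir449b, at a log2 ratio of 10.3, but Mir449b had only 8 reads in replicate 1 and 7 in replicate 2. Mir132 is the downstream gene of its pair, and the downstream gene was the higher one in 50 of the 104 pairs. The gap of 203 bases in the pair is below the median gap of 439.5 bases.

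Neighbours that share a seed, as these do, were compared separately. Both members had a RefSeq sequence in 98 of the 104 pairs, and the others could not be compared by seed. Among the others, Mir449a with Mir449b (1238 times) and Mir143 with Mir145a (83.8 times) had a larger ratio than Mir132 and Mir212. So had Mir30d with Mir30b (73.0 times) and Mir669o with Mir466n (20.4 times). Mir3078 with Mir124a-1 (5.58 times) and Mir449c with Mir449b (1.34 times) had a smaller one. A mature arm with the same seed was found in both members of 22 of the 98 pairs, and 6 of these 22 had a larger ratio than Mir132 and Mir212. They were Mir181a-1 with Mir181b-1 (358 times), Mir30e with Mir30c-1 (354 times), Mir29a with Mir29b-1 (73.6 times), Mir29c with Mir29b-2 (62.3 times), Mir34c with Mir34b (31.6 times) and Mirlet7d with Mirlet7a-1 (24.7 times). In 13 of the 22, a mature arm has a run of at least 20 bases in common with another hairpin, so the count of that gene leaves out reads that fit both places. Mir132 and Mir212 are among the other 9 of the 22, where 1 pair, Mir34c with Mir34b, had a larger ratio. Pairs without a RefSeq sequence for both members could not enter the 9. The rest of the 9 were Mir200b with Mir200a (7.77 times), Mir302b with Mir302c (5.84 times), Mir501 with Mir500 (3.68 times), Mir411 with Mir379 (2.59 times), Mir181c with Mir181d (1.74 times), Mir221 with Mir222 (1.74 times) and Mir93 with Mir106b (1.62 times). This narrowing to genes without such runs was made after the values were seen and is a description, with no test. The remaining 8 of the 22 pairs, all with such runs, were Mir450b with Mir450-1 (9.37 times), Mirlet7b with Mirlet7c-2 (8.17 times), Mir363 with Mir92-2 (5.88 times), Mir181b-2 with Mir181a-2 (2.70 times), Mir450-1 with Mir450-2 (2.48 times), Mir15b with Mir16-2 (1.73 times), Mir98 with Mirlet7f-2 (1.64 times) and Mir15a with Mir16-1 (1.25 times). Some lower members were thinly counted. In replicates 1 and 2, Mir29b-1 had 10 and 9 reads and Mir29b-2 had 6 and 12. Mir200a had 3 and 15 reads, and Mir450-2 had 6 and 6.

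**Figure D5:**
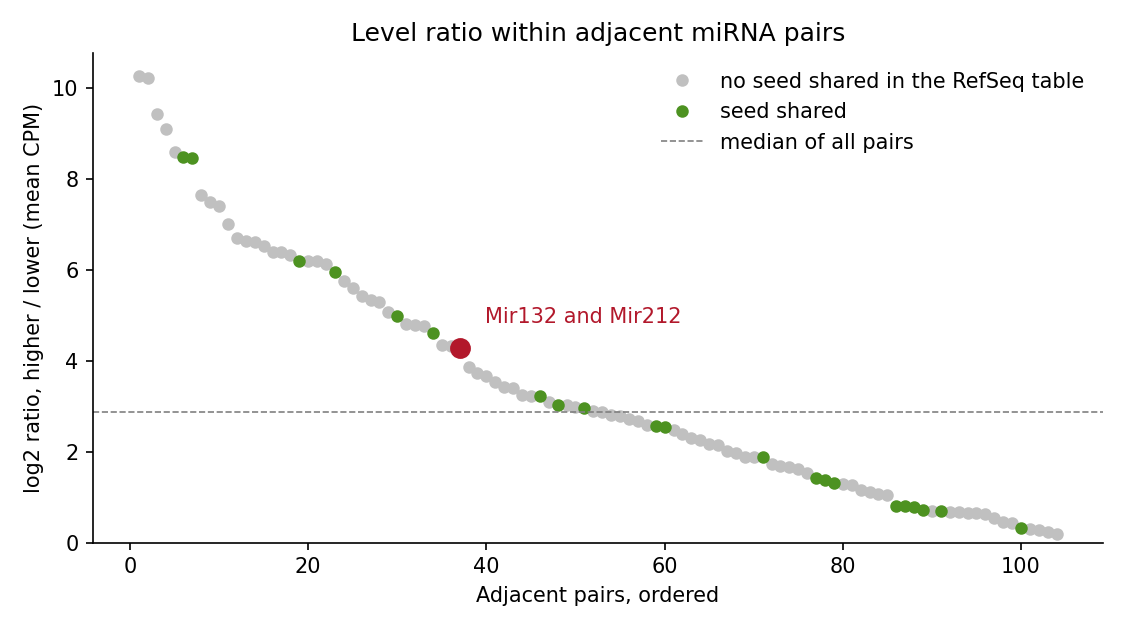
Log2 ratio of the higher over the lower mean CPM in 104 adjacent miRNA pairs, ordered from the most to the least unequal, with the 22 pairs whose mature arms share a seed in RefSeq in green, except the pair itself in red, and the median of all pairs as a dashed line. Pairs without a RefSeq sequence for both members are drawn in grey. Mir132 and Mir212 stand at place 37 with a log2 ratio of 4.29, above the median of 2.89.

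The ratio of the pair was also close between libraries. The log2 ratio of Mir132 over Mir212 differed by 0.079 between replicate 1 and replicate 2, where the median difference was 0.17 over the 81 adjacent pairs with both members at a mean of at least 10 CPM, and 22 of the 81 differed by less. All pairs were read from the same 2 libraries, so this spread holds both counting error, which is larger for thinly counted pairs, and the difference between the pools.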

How the data were processed

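The deposited tables hold raw counts of reads per miRNA gene, 1 table a library, with 3 columns (either strand, sense, opposite strand). Per the deposited readme text they are on mm10 with GENCODE M4. Which aligner and counter were used is not stated in the labels or readme text. The column meaning was read from the layout, which is that of STAR's gene counts. Rows of unmapped reads (13.4% and 16.9% in replicates 1 and 2), reads with several places, and reads outside genes (3.57% and 3.43%) were left out of totals and tests.

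Symbols and positions came from GENCODE M21 (same assembly), which matched 1894 of 1973 identifiers. The identifier of Mir132 has version 1 in the counts and version 2 in M21, so its ends may differ between releases. M21 and RefSeq give the pair the same ends. Mir191, Mir142, Mir9-1, Mir219b, Mir126b and Mir1a-2 were not matched by symbol and were not analysed here.

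CPM used sense counts. Ratios between libraries used TMM sizes of edgeR 4.0.16 and a pseudocount of 1 CPM, and folds with intervals used none. The exact binomial test per gene (two-sided, conditional on the sum, scipy 1.17.1) was Benjamini-Hochberg adjusted and called under 0.05. edgeR's quasi-likelihood test needs groups to contrast, and there is 1. The test was checked on simulated counts that hold counting error only, so the check does not cover variation between pools. Alternatives were DESeq2 1.42.0 size factors, other scalings, filters, pseudocounts and gaps, the either-strand column, a fixed coefficient of variation, and leaving out a replicate. Seeds and hairpins came from the RefSeq table, which is not complete, and folding from RNAfold 2.7.2.

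Named by rule were the pair, miRNA genes within 50 kb, the 3 genes nearest to each in level, adjacent pairs sharing a seed, the activity-linked list and up to 2 genes per marker list. Rank neighbours, Mir449a and Mir449b, adjacent pairs without a RefSeq sequence for both members, called markers and genes at 0 counts were named after their values were seen. The pair and the lists were chosen with earlier results of these data known. The labels call the libraries biological replicates. The p-values of the binomial test and of Fisher's exact test set differences between the libraries against counting error only. They do not measure variation between biological replicates. In edgeR's exact test the variation between pools was assumed and not estimated from the libraries.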

Additional observations from a re-analysis of the deposited data

How the results depend on the processing

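The ratio of Mir132 over Mir212 kept its value under either-strand counts and under summed counts (19.7), and was 19.03 to 20.1 with 1 library left out. The levels were 833.7 CPM for Mir132 and 42.6 CPM for Mir212. They were 1073 and 54.8 CPM when Mir99a was left out of the total, and 372 and 18.98 CPM when all listed reads formed it, both by construction of the denominator. The ranks, 94 and 250, were 99 and 260 with either-strand counts, and 96 to 99 and 249 to 253 in single libraries. The log2 ratio of Mir132 between libraries (replicate 1 over replicate 2) lay between -0.20 and -0.16 and was called under each scaling, filter, column and pseudocount, with adjusted p from 8.64e-08 to 3.38e-05. It was -0.16 and not called (adjusted p = 1) in edgeR's exact test with 10% variation between pools, which called 3 genes in place of 142. Mir212 was called under none. The place of the pair, 37 of 104 adjacent pairs, ranged from 25 of 81 to 42 of 111 under the other planned settings. It was 20 of 70 among pairs with a RefSeq sequence for both members and no run of 20 bases in another hairpin. That alternative was chosen after seeing the data and compares fewer pairs. At its depth, Mir212 could not show a difference between libraries of the size of that of Mir132. No paired analysis was possible because there is 1 group.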
